A study of Mus musculus with 7 samples.

Results

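The genes described here are the subunits of the transcription factor NF-kB and the inhibitors that it induces against itself. A list of 10 genes was followed: the subunit genes Nfkb1, Nfkb2, Rel, Rela and Relb, the inhibitor genes Nfkbia and Nfkbie, the atypical inhibitor genes Nfkbiz and Bcl3, and Tnfaip3. Rows of the deposited table were taken by their annotated gene symbol, with the brightest probe set kept where a symbol had several. Of the 10 genes 9 had a named probe set among the 19505 named genes, and Nfkb1, which encodes the p105 precursor of p50, had none and is not analysed here. The RNA came from type 1 conventional dendritic cells (cDC1), the subset specialised in cross-presentation to CD8 T cells, sorted from spleens of C57BL/6 mice with B16-OVA tumors (B16 is a mouse melanoma line, here made to carry the antigen ovalbumin). There were 4 arrays labelled KO, from mice carrying CD11c-Cre and a floxed Opa1 gene, and 3 labelled WT, from WT mice. The Cre is driven by CD11c, which other dendritic cells and some macrophages also express, so the deletion need not be limited to cDC1. The labels give neither the age of the mice nor whether each array came from a separate mouse, and the p-values speak only to array-to-array spread, part of which may be technical.

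NF-kB dimers are held in the cytoplasm by IkB proteins until a receptor such as a Toll-like receptor or CD40 activates the IkB kinase complex, which marks IkB for degradation. In the canonical branch RelA or c-Rel pairs with p50. In the non-canonical branch the kinase NIK drives processing of p100, the product of Nfkb2, to p52, which pairs with RelB. Several of the genes are themselves NF-kB targets, which makes the circuit self-limiting, and RelB is known for its part in dendritic cell development and maturation.

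The arrays did not all match their labels in cell type markers, and that bears on every comparison below. Opa1 read 7.70, 7.10, 6.85 and 8.24 log2 units on KO 1 to 4, against 8.14, 8.80 and 9.15 on WT 1 to 3, so the array labelled KO 4 lay above the array labelled WT 1. The probes may lie outside the deleted part, and their positions were not analysed here. All 15 listed cDC1 markers were measured, and the log2 of their summed level was 16.05 to 16.10 on the KO arrays, against 14.14 to 16.04 on the WT arrays. Xcr1, the chemokine receptor that defines cDC1, read 12.70 to 12.79 on the KO arrays, against 12.12, 7.97 and 12.76 on WT 1 to 3. Of 13 melanocyte and melanoma markers, 12 were lower on every KO array than on any WT array, and the log2 of their summed level was 11.12 to 11.96 on the KO arrays, against 13.36 to 16.21 on the WT arrays. Pmel, a melanosome protein, read 7.99 to 9.75 on the KO arrays, against 13.51, 13.59 and 11.62 on WT 1 to 3. Markers of cDC2 summed to 11.70 to 12.05 on the KO arrays, against 12.14 to 14.47 on the WT arrays, and those of monocytes and macrophages to 12.49 to 12.82 on the KO arrays, against 12.97 to 14.09 on the WT arrays. Such sums follow the brightest genes. By the mean of the list, WT 1 lay inside the KO range in both. It was at 8.03 for cDC2 (KO 7.88 to 8.35) and 8.87 for monocytes and macrophages (KO 8.44 to 8.93). The difference of each member is therefore given with all 7 arrays and again without the arrays labelled WT 1 and WT 2, which leaves WT 3 as the only WT array. The part of other cell types in the differences of the NF-kB genes was not tested, and in bulk RNA fewer cells of a type and less RNA per cell cannot be told apart.

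The promoters of most of these genes carry sequences of the kind NF-kB binds, and they are shown here because feedback through such sequences is what links these genes in textbook accounts of the pathway. RefSeq windows of build GRCm38.p6, from 250 bases before to 50 bases after each annotated start, were at hand for 7 of the 10 members, and those of Nfkb1, Relb and Nfkbiz were not used here. The windows were searched on both strands for the kB consensus, with overlapping matches joined, and 6 of the 7 members held it in at least 1 window. Over all genes the share was 9.55% of 27025 genes. Below are the 130 bases before the start, 5′ to 3′ on the strand of the gene, with matches to the consensus in capitals. Of the several windows of Nfkb2 and Tnfaip3 the most upstream is printed. 
Nfkb2 (chr19:46304607-46304736, plus strand): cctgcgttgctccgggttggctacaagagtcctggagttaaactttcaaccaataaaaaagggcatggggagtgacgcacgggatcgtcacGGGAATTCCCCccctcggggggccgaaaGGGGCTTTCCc
Rel (chr11:23770970-23771099, minus strand): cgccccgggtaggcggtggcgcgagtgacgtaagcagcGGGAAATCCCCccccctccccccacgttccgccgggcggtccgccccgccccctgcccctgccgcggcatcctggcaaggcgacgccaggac
Rela (chr19:5637411-5637540, plus strand): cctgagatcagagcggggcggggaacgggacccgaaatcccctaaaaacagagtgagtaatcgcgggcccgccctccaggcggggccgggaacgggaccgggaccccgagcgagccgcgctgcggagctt
Nfkbia (chr12:55492648-55492777, minus strand): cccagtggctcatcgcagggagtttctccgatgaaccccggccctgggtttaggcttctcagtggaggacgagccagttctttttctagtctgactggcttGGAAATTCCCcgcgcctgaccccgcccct
Nfkbie (chr17:45555570-45555699, plus strand): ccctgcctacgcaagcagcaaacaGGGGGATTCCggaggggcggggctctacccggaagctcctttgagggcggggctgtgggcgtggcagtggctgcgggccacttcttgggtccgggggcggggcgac
Tnfaip3 (chr10:19015411-19015540, minus strand): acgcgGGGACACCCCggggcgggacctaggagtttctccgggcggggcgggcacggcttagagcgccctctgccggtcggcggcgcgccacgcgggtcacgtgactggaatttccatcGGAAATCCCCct
In the most upstream window of Nfkb2 the matches ran from base -39 to -29 and from -11 to -2, counted back from -1 at the base before the start. Its next window held matches at -236 to -227 and at 11 to 20, and the last window 1 at -225 to -216. Nfkbia held 1 match at -29 to -20, Rel 1 at -92 to -82 and Nfkbie 1 at -106 to -97. The most upstream window of Tnfaip3 held 2, at -125 to -116 and at -12 to -3, and its other window 0. The Rela window had 0 matches. Bcl3 had its match, GGGAAGTCCC, just after the start, from base 3 to base 12. A match describes the letters in the window and not binding in these cells.

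No NF-kB gene passed the threshold of 0.05 for an adjusted p between KO and WT (limma with Benjamini-Hochberg adjustment over all 19505 genes), nor did any other gene, so the share called over all genes was 0%. The largest differences were in Bcl3, Relb and Nfkb2, which averaged 0.53, 0.52 and 0.43 log2 units less on the KO arrays. Relb alone of the 9 had every KO array below every WT array, which held for 5.92% of all genes, and 0 of the 9 had every KO array above every WT array, against 7.85% of all genes. At an unadjusted p under 0.05 the lower ones were Relb and Bcl3, 2 of 9 against 10.6% of all genes, and 0 of 9 were higher against 8.98% of all genes. The mean was lower in KO in 7 of the 9, against 40.1% of all genes. The median difference was -0.21 over the 9 and 0.06 over all genes.

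**Figure D1:**
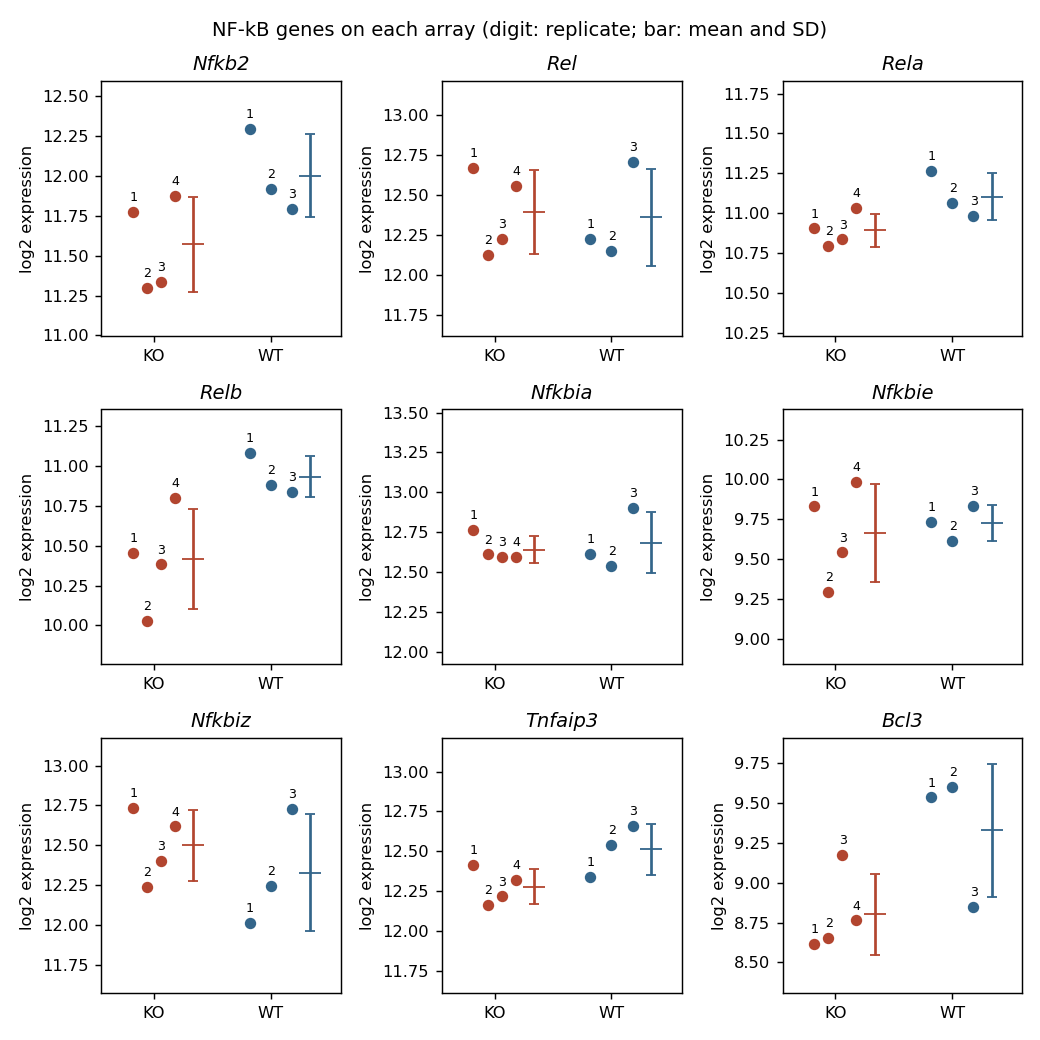
Each panel plots the deposited log2 expression of 1 gene on the 4 KO arrays (left, red) and the 3 WT arrays (right, blue), with the replicate number above each point and the group mean and SD beside the points. All panels span the same number of log2 units. Only in Relb do the KO points, up to 10.80, lie wholly below the WT points, which start at 10.84.

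Among the subunits, Relb, the partner of p52 in the non-canonical branch, read 10.45, 10.03, 10.38 and 10.80 on KO 1 to 4, against 11.08, 10.88 and 10.84 on WT 1 to 3. The groups did not overlap, but KO 4 came within 0.04 of WT 3, and the overlap returned once each array was centred on its median or quantile normalised. The difference, KO minus WT, was -0.52 log2 units with a standard error of 0.18 and a 95% interval of -0.93 to -0.11 (limma, adjusted p = 0.223). Over the 35 ways to split 7 arrays, a two-sided exact permutation gave p = 0.0571, the smallest the design allows; Nfkb2, Rela, Tnfaip3 and Bcl3 each gave 0.114. Against WT 3 alone the difference was -0.42 (95% interval -1.01 to 0.17; limma, adjusted p = 0.861).

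Nfkb2, which encodes p100, the precursor of p52 and an inhibitor of RelB, read 11.78, 11.30, 11.34 and 11.87 on KO 1 to 4, against 12.29, 11.92 and 11.80 on WT 1 to 3. KO 4 lay above WT 3, so the groups overlapped, and WT 1 stood apart at the top. The difference was -0.43 (95% interval -0.87 to 0.01; limma, adjusted p = 0.260), and against WT 3 alone it was -0.22 (95% interval -0.79 to 0.34). Relb and Nfkb2 thus had the same order of the WT arrays, with WT 1 highest and WT 3 lowest, and both were lowest on KO 2 and highest on KO 4. Rela, given next, was ordered in the same way, so the order was not particular to the genes of the non-canonical branch.

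Rela, the transactivating subunit of the canonical dimer, read 10.90, 10.79, 10.83 and 11.03 on KO 1 to 4, against 11.26, 11.06 and 10.98 on WT 1 to 3. It varied little, with KO 4 above WT 3 and a range of 0.24 over the KO arrays. The difference was -0.21 (95% interval -0.47 to 0.05; limma, adjusted p = 0.310), and -0.09 against WT 3 alone (95% interval -0.43 to 0.25). Rel, which encodes c-Rel, a subunit needed for interleukin-12 production in dendritic cells, read 12.67, 12.12, 12.23 and 12.56 on KO 1 to 4, against 12.22, 12.15 and 12.71 on WT 1 to 3. Unlike in Nfkb2, WT 3 was the highest of all 7 arrays, and WT 1 and WT 2 lay near the low KO arrays. The difference over all 7 arrays was 0.03 (95% interval -0.40 to 0.47; limma, adjusted p = 0.931), and against WT 3 alone it was -0.31 (95% interval -0.83 to 0.20).

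Among the inhibitors, Nfkbia, which encodes IkB-alpha, the fast feedback inhibitor of canonical dimers, read 12.77, 12.61, 12.59 and 12.59 on KO 1 to 4, against 12.61, 12.54 and 12.90 on WT 1 to 3. KO 2 to 4 and WT 1 and WT 2 were nearly level, and KO 1 and WT 3 lay above them. The difference was -0.04 (95% interval -0.31 to 0.23; limma, adjusted p = 0.848), and -0.26 against WT 3 alone (95% interval -0.59 to 0.07). Nfkbie, which encodes IkB-epsilon, a slower feedback inhibitor, read 9.83, 9.29, 9.54 and 9.99 on KO 1 to 4, against 9.73, 9.61 and 9.84 on WT 1 to 3. All 3 WT values fell inside the range of the KO arrays, and the difference was -0.06 (95% interval -0.46 to 0.33; limma, adjusted p = 0.843). Against WT 3 alone it was -0.17 (95% interval -0.75 to 0.40).

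Tnfaip3 encodes A20, a ubiquitin-editing enzyme that shuts off signalling above the IkB kinase complex. It read 12.41, 12.16, 12.22 and 12.32 on KO 1 to 4, against 12.34, 12.54 and 12.66 on WT 1 to 3. The groups overlapped through KO 1, which exceeded WT 1. WT 2 and WT 3 were higher than any KO array. The difference was -0.23 (95% interval -0.50 to 0.03; limma, adjusted p = 0.290). Against WT 3 alone it was -0.38 (95% interval -0.73 to -0.03; limma, adjusted p = 0.834), the largest after Relb.

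The atypical IkB proteins act in the nucleus. Bcl3, which binds p50 and p52 homodimers, read 8.61, 8.65, 9.17 and 8.76 on KO 1 to 4, against 9.54, 9.60 and 8.85 on WT 1 to 3. WT 1 and WT 2 were above every KO array, but WT 3 lay below KO 3. The difference of -0.53 over all 7 arrays (95% interval -1.03 to -0.03; limma, adjusted p = 0.245) came to -0.05 against WT 3 alone (95% interval -0.56 to 0.46). Without WT 3 it was -0.77 and was called (limma, adjusted p = 0.00958), in a fit in which 13.8% of all genes were called lower in KO and which rests on WT 1 and WT 2 (11.4% were called higher). With array weights Bcl3, Relb and Nfkb2 were called lower, 3 of 9 against 12.6% of all genes, and 0 of 9 higher against 10.3%; the weight of WT 3 was 0.24, the smallest of the 7. Nfkbiz, which encodes IkB-zeta, a coactivator of secondary response genes, read 12.74, 12.24, 12.40 and 12.62 on KO 1 to 4, against 12.01, 12.24 and 12.73 on WT 1 to 3. WT 1 was the lowest array and WT 3 almost level with KO 1, the highest. Its difference, 0.17 over all 7 arrays (95% interval -0.28 to 0.62; limma, adjusted p = 0.614), was -0.23 against WT 3 alone (95% interval -0.69 to 0.23).

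The members differed in how the WT arrays were ordered. In 5 of the 9 (Rel, Nfkbia, Nfkbie, Nfkbiz and Tnfaip3) WT 3 was above both WT 1 and WT 2, and in 4 (Nfkb2, Rela, Relb and Bcl3) it was below both. Over all genes the shares were 39.0% above both and 37.5% below both, close to an even split like that of the members. WT 3 exceeded the mean of WT 1 and WT 2 by 0.60 in Nfkbiz and 0.52 in Rel, while in Bcl3 it was 0.72 below. The direction of the group difference in Rel and Nfkbiz turned with those arrays. Against WT 3 alone all 9 members had a lower mean on the KO arrays, against 44.7% of all genes, with a median difference of -0.23 over the members and 0.02 over all genes. WT 3 was above every KO array in 4 of the 9 (Rel, Relb, Nfkbia and Tnfaip3), against 18.1% of all genes. In that comparison 0 genes passed the adjusted threshold, and at an unadjusted p under 0.05 Tnfaip3 was the 1 member lower in KO, against 3.05% of all genes, and 0 were higher, against 2.87%. It rests on 1 WT array, whose spread was taken from that of the KO arrays. On that array the melanocyte markers averaged 1.36 log2 units above the KO mean and the cDC1 markers 0.03 below it. Also above their KO means were monocyte and macrophage markers (0.56), T and NK cell markers (0.45) and mature dendritic cell markers (0.43). The same held for plasmacytoid dendritic cell (0.34), cDC2 (0.31) and B cell markers (0.13). Neutrophil markers were 0.02 below and fibroblast and endothelial markers 0.04 below.

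**Figure D2:**
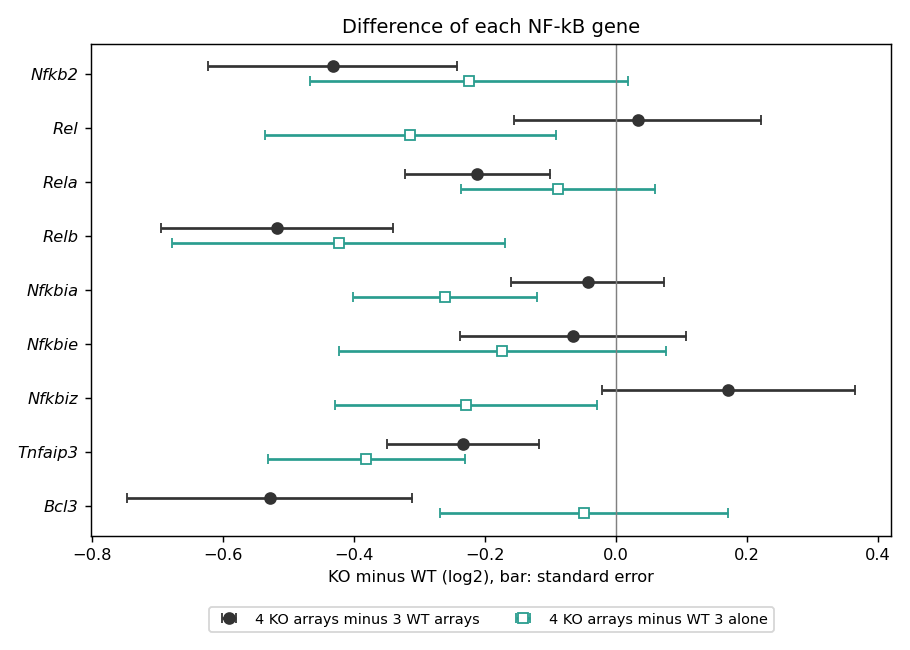
Each row gives the difference of 1 gene, KO minus WT in log2 units, with its standard error, for the 4 KO arrays against all 3 WT arrays (filled circles) and against WT 3 alone (open squares). All 9 squares lie left of 0, while Rel and Nfkbiz, at 0.03 and 0.17, have their circles right of it. Bcl3 has its circle at -0.53 and its square at -0.05.

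The KO arrays also differed among themselves. The range over the 4 KO arrays had a median of 0.55 log2 units over the 9 members and 0.32 over all genes. Relb had the widest, 0.77, followed by Nfkbie at 0.69 and Nfkb2 at 0.58, while Nfkbia, at 0.17, and Rela, at 0.24, were among the steady genes. KO 2 was the lowest KO array in 7 of the 9 members, against 23.7% of all genes, and the highest in 0 of 9. KO 1 and KO 4 were each the highest in 4 of the 9, against 26.8% and 21.6% of all genes. These are descriptions of single arrays, which have no condition of their own.

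Several marker lists were, like Relb, Nfkb2, Rela and Nfkbie, lowest on KO 2 and highest on KO 4 among the KO arrays. Relative to the KO mean, the list mean of mature dendritic cell markers was -0.44 on KO 2 and 0.48 on KO 4. That of T and NK cell markers was -0.64 on KO 2 and 0.36 on KO 4, of cDC2 markers -0.31 and 0.15, of neutrophil markers -0.26 and 0.20, and of B cell markers -0.24 and 0.24. The melanocyte markers had another order, with 0.11 on KO 2 and -0.39 on KO 4. Of 10 mature dendritic cell markers listed 8 were measured, and the log2 of their summed level was 13.29 to 14.08 on the KO arrays, against 14.06 to 14.48 on the WT arrays. Of the 8, 7 were lowest on KO 2 among the KO arrays and 7 highest on KO 4. Fscn1, the actin-bundling protein of mature dendritic cells, read 9.90, 9.01, 10.16 and 11.16 on KO 1 to 4, against 12.80, 12.56 and 11.11 on WT 1 to 3. Socs2, a suppressor of cytokine signalling expressed in mature dendritic cells, read 8.87, 7.72, 8.48 and 9.61 on KO 1 to 4, against 10.55, 10.33 and 9.59 on WT 1 to 3. In both genes KO 4 slightly exceeded WT 3, as it did in Nfkb2, Rela and Nfkbie but not in Relb. Apol7c, on the same list, went the other way between the groups, with 12.14, 11.46, 11.78 and 12.36 on KO 1 to 4, against 9.63, 8.97 and 12.29 on WT 1 to 3. The other 5 (Ccr7, Nudt17, Cd200, Marcksl1 and Tmem123) had lower means in KO, by -0.30 to -0.88 as KO minus WT. The part of any of these cell types in the values of the members was not tested.

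**Figure D3:**
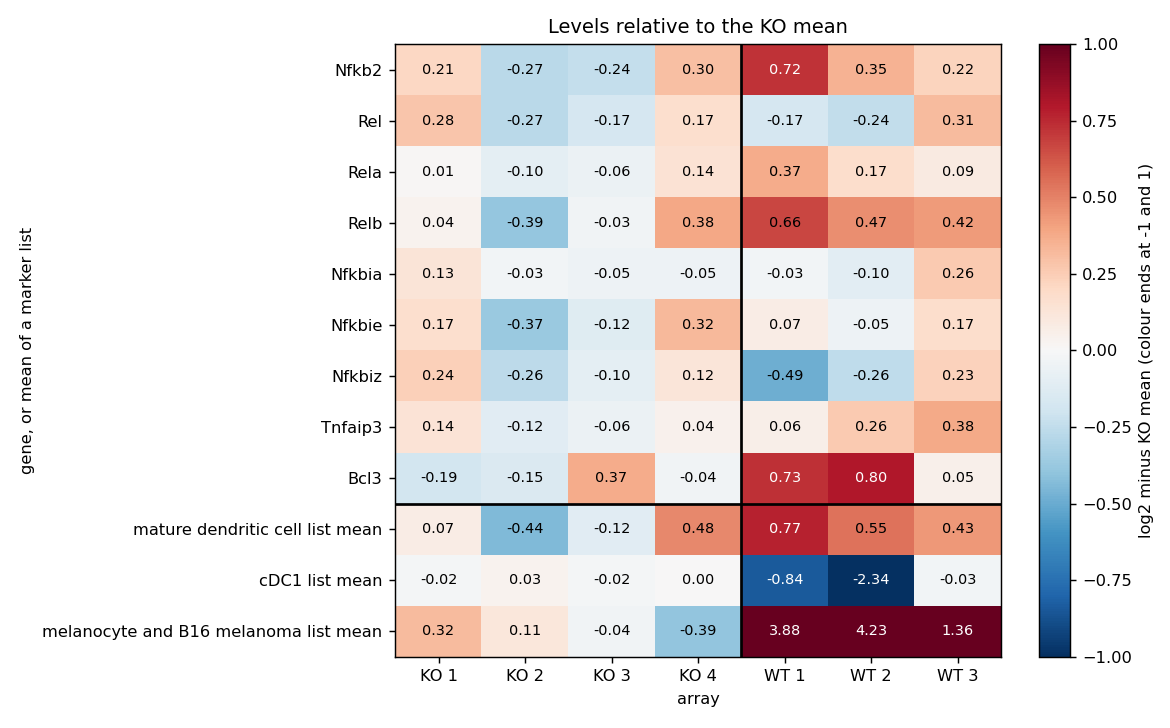
Each cell gives a log2 value minus the mean of the 4 KO arrays, for the 9 NF-kB genes and for the means of 3 marker lists, on the KO arrays (left) and the WT arrays (right). The mature dendritic cell markers run from -0.44 on KO 2 to 0.48 on KO 4, and Relb, Nfkb2, Rela and Nfkbie have the same order of KO arrays. The melanocyte markers stand 3.88, 4.23 and 1.36 above the KO mean on WT 1 to 3.

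By profile over the 7 arrays, with each gene centred on its own mean, the closest pairs of members were Rel with Nfkbiz (root mean square difference 0.11 log2 units), Nfkbia with Tnfaip3 (0.13) and Nfkb2 with Relb (0.14). The farthest pair was Nfkbiz with Bcl3 (0.59). Of all named genes the 5 nearest to Relb, the member with the smallest p over the 7 arrays, were Ly6c1 (0.07), Rgs12 (0.09), Izumo4 (0.10), Cd6 (0.10) and Atxn1 (0.12). The 5 nearest to Tnfaip3, the member with the smallest p against WT 3 alone, were Minar2 (0.05), Aqr (0.06), Tmem19 (0.06) and a pair of genes with provisional names.

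The wider pathway was read from 6 lists with 126 measured genes, of which 0 passed the adjusted threshold in limma. At an unadjusted p under 0.05, 18 of the 126 were lower in KO, against 10.6% of all genes. Of these 18, 15 were inflammatory target genes and 3 were receptors. Another 10 of the 126 were higher, against 8.98% of all genes. Against WT 3 alone 13 were lower, against 3.05% of all genes, and 2 higher, against 2.87%. Further IkB relatives and direct modifiers had a median difference of 0.10 over 10 genes, and 0.03 against WT 3 alone. Nkiras1, a Ras-like protein that binds IkB, read 10.01, 9.88, 9.88 and 9.91 on KO 1 to 4, against 9.50, 9.45 and 9.82 on WT 1 to 3, with every KO array above every WT array (difference 0.33; limma, adjusted p = 0.223). Its difference against WT 3 alone was 0.10 (limma, adjusted p = 0.947). Its paralogue Nkiras2 read 10.09 to 10.51 on the KO arrays, against 11.43, 11.67 and 10.18 on WT 1 to 3, a difference of -0.75 over all arrays and 0.16 against WT 3 alone. Thus WT 1 and WT 2 were low in the one and high in the other. Nfkbil1, an IkB-like protein, also had every KO array above every WT array, with means of 9.62 ± 0.05 (SD, n = 4) in KO and 9.28 ± 0.24 (SD, n = 3) in WT, a difference of 0.33 over all arrays and 0.20 against WT 3 alone.

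Of the IkB kinase complex and upstream kinases 12 of 17 were measured, 7 with a lower and 5 with a higher mean in KO, with a median difference of 0.00, or 0.04 against WT 3 alone, and 0 at an unadjusted p under 0.05 in limma. Map3k14, which encodes NIK, the kinase of the non-canonical branch, read 11.24, 10.99, 11.00 and 11.40 on KO 1 to 4, against 12.15, 11.91 and 11.07 on WT 1 to 3. WT 1 and WT 2 were high and WT 3 lay inside the KO range, and the difference was -0.55 over all arrays and 0.09 against WT 3 alone. Ikbke, an IkB kinase relative, read 7.83 to 8.49 on the KO arrays, against 8.57, 9.41 and 8.19 on WT 1 to 3, a difference of -0.59 over all arrays and -0.06 against WT 3 alone. Of the adaptors and ubiquitin enzymes 19 of 21 were measured, with a median of 0.03, or -0.09 against WT 3 alone. Tirap, the adaptor that brings MyD88 to Toll-like receptors, read 9.27, 9.01, 9.04 and 9.01 on KO 1 to 4, against 8.85, 8.63 and 8.74 on WT 1 to 3, and its groups did not overlap (difference 0.34; limma, adjusted p = 0.223). It was 0.34 against WT 3 alone as well. Birc2, which encodes cIAP1, a ubiquitin ligase that keeps NIK low, read 9.88, 9.43, 9.83 and 10.28 on KO 1 to 4, against 9.82, 10.23 and 10.61 on WT 1 to 3, a difference of -0.37 over all arrays and -0.76 against WT 3 alone.

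Among 17 measured receptors 9 had a lower and 8 a higher mean in KO, and 13 a lower and 4 a higher mean against WT 3 alone, with medians of 0.00 and -0.06. Tlr11 and Tlr12, receptors for profilin that cDC1 express, read 10.79 to 11.12 and 10.59 to 10.63 on the KO arrays. On WT 1 to 3 Tlr11 read 9.01, 6.20 and 10.94 and Tlr12 read 8.80, 7.64 and 10.67. Their differences of 2.27 and 1.58 over all arrays came to 0.04 and -0.06 against WT 3 alone. Their low values fell on the arrays on which the cDC1 markers were low. Tnfrsf9, which encodes 4-1BB, read 8.31 to 8.82 on the KO arrays, against 9.72, 9.86 and 8.72 on WT 1 to 3, a difference of -0.84 over all arrays and -0.13 against WT 3 alone. Of 21 further negative feedback genes 9 had a lower and 12 a higher mean, with a median of 0.02, or -0.08 against WT 3 alone. Cyld, a deubiquitinase, read 10.22 to 10.43 on the KO arrays, against 9.44, 9.27 and 10.43 on WT 1 to 3, a difference of 0.60 over all arrays and -0.12 against WT 3 alone. Zc3h12a, which encodes the RNase Regnase-1, read 9.62 to 10.05 on the KO arrays, against 10.16, 9.88 and 10.18 on WT 1 to 3, a difference of -0.27 over all arrays and -0.37 against WT 3 alone.

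Inflammatory target genes had the lowest median of the 6 lists, -0.29 over 47 measured genes, with a lower mean in KO in 36 and a higher one in 11. At an unadjusted p under 0.05, 15 of the 47 were lower, against 10.6% of all genes, and 0 higher, against 8.98%. In 10 every KO array lay below every WT array, against 5.92% of all genes, and in 1 every KO array lay above every WT array, against 7.85%. Gadd45b, a stress-induced survival gene, read 11.81, 11.46, 11.58 and 11.71 on KO 1 to 4, against 12.11, 12.06 and 12.17 on WT 1 to 3. Its WT arrays were close together, so its difference of -0.47 was kept against WT 3 alone, at -0.53 (limma, adjusted p = 0.223 over all arrays and 0.83 against WT 3). Ccl22, which encodes a ligand of the receptor CCR4, read 9.34, 9.02, 8.85 and 10.14 on KO 1 to 4, against 11.79, 11.47 and 10.21 on WT 1 to 3. Bcl2l1, which encodes the survival protein Bcl-xL, read 7.30 to 8.03 on the KO arrays, against 9.58, 9.84 and 8.43 on WT 1 to 3. Ccl5, a chemokine that recruits T cells, read 9.31 to 9.98 on the KO arrays, against 10.43, 10.96 and 10.15 on WT 1 to 3. Slc2a6, a hexose transporter of activated myeloid cells, averaged 9.24 ± 0.22 on the KO arrays (SD, n = 4) and 9.78 ± 0.24 on the WT arrays (SD, n = 3). Il1a, the gene of interleukin-1 alpha, read 7.13 to 7.45 on the KO arrays, against 7.68, 9.48 and 8.18 on WT 1 to 3. Cd83, a surface marker of mature dendritic cells, read 11.05 to 11.25 on the KO arrays, against 11.00, 10.51 and 11.72 on WT 1 to 3. In Ccl22, Bcl2l1, Ccl5, Slc2a6 and Il1a the groups did not overlap, and in Cd83 WT 3 alone was above the KO arrays. The differences against WT 3 alone were -0.87 in Ccl22, -0.61 in Bcl2l1, -0.54 in Ccl5, -0.28 in Slc2a6, -0.86 in Il1a and -0.58 in Cd83, where over all arrays they were -1.82, -1.47, -0.91, -0.54, -1.12 and 0.07. As given above, WT 3 also stood above the KO mean in several marker lists. The part of other cell types in the differences of the target genes was not tested. Against WT 3 alone 41 of the 47 had a lower mean in KO, with a median of -0.37, and 0 passed the adjusted threshold. At an unadjusted p under 0.05, 11 were then lower, against 3.05% of all genes, and 1 higher, against 2.87%.

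**Figure D4:**
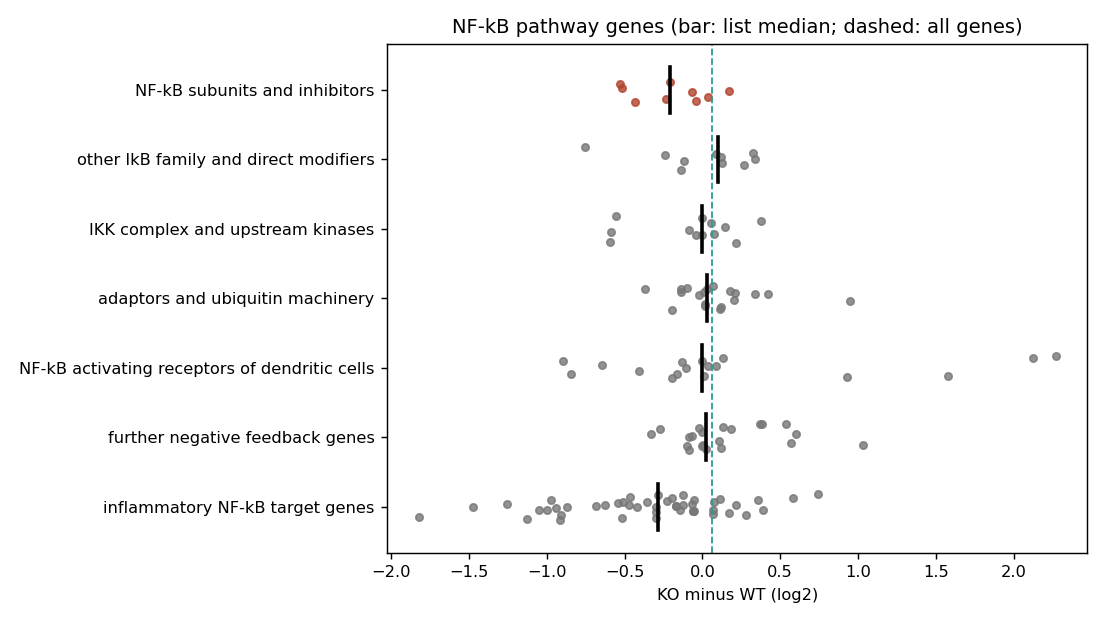
Each point is the difference of 1 gene, KO minus WT in log2 units over all 7 arrays, in the NF-kB subunits and inhibitors (red) and in 6 other lists of pathway genes (grey). Bars mark list medians, which run from -0.29 for the inflammatory targets and -0.21 for the subunits and inhibitors to 0.10, and the dashed line marks the median of all genes at 0.06.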

How the data were processed

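The deposited table gives log2 values for 28846 probe sets on 7 arrays. The submitters' processing notes name RMA, which corrects background, normalizes and summarises probes, and the Affymetrix Expression Console, version 1.1. The scale was read from the values, 3.68 to 14.28. Per the labels' protocols, RNA came from a micro-scale column kit and was labelled with a whole-transcript kit. Differences of dim genes may be understated where background remains in the signal. Precision is limited by the number of arrays. The notes do not say which arrays were normalized jointly.

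GEO's platform annotation gave 1 gene symbol to 19572 probe sets, and 19505 genes were left after the brightest probe set per symbol was kept. The comparison of KO and WT used lmFit and eBayes of limma 3.58.1 (R 4.3.3) without covariates. All genes entered the Benjamini-Hochberg adjustment. For each member, exact permutation p-values are two-sided. A fold change is a log2 difference, KO minus WT. The script was tested on simulated data. Marker levels were summed on the linear scale before log2 was taken.

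The members and all lists were chosen with earlier results of these data known. All measured members are named; of each other list, up to 5 genes with the smallest p over 7 arrays and up to 2 without the arrays labelled WT 1 and WT 2 could be named, of which some are given. Likeness was named for the 2 members with the smallest p. Alternatives were each array left out, WT 1 and WT 2 left out, a replicate block, 2 scalings, a dim filter, other variance models, array weights and every probe set.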

Additional observations from a re-analysis of the deposited data

Results flagged for a closer look

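On the 4 KO arrays 2 of 49 genes examined, the measured members and the named pathway genes, had 1 array far from the others relative to the whole range of the group. Chance flags about 1 in 20 groups. Nfkbia read 12.77 on KO 1, with the other KO arrays within 0.02 of each other, and Tirap read 9.27 on KO 1, with the others at 9.01 to 9.04.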

How the results depend on the processing

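In limma 0 of the 19505 genes passed the adjusted threshold over all 7 arrays (3820 at an unadjusted p under 0.05), and so 0 members and 0 of the other pathway genes. Without WT 3, 4931 of the 19505 genes passed, 13.8% of all genes as lower in KO and 11.4% as higher. With them passed 1 of 9 members (Bcl3, lower) and 39 of 126 other pathway genes, 20 lower and 19 higher. With array weights 4458 passed, 12.6% of all genes as lower in KO and 10.3% as higher. With them passed 3 of 9 members (Nfkb2, Relb and Bcl3 at -0.64, -0.62 and -0.64) and 30 of 126 other pathway genes. WT 3 had the smallest weight, 0.24. When single arrays were left out, 0 to 4931 genes, 0 to 1 members and 0 to 39 other pathway genes passed. Members with no overlap between KO and WT numbered 1 over all arrays, 1 to 4 with single arrays left out, 4 without WT 1 and WT 2, and 0 after median centring or quantile normalization. Over all arrays, 1155 of 19505 genes had every KO array below every WT array and 1532 had every KO array above. With WT 3 as the only WT array these numbers were 3539 and 4714, since fewer arrays overlap less often. The counts of members under different settings therefore cannot be compared with each other. Shares of all genes with no overlap are not given for the other settings, so the counts there are not read as a result about the members. Asking for a log2 difference of at least 1 besides the adjusted threshold tested nothing further, since 0 genes had passed that threshold over all 7 arrays.

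Nfkb2, Rela, Relb, Tnfaip3 and Bcl3 kept a lower mean in KO under all 15 alternatives, Relb between -0.65 and -0.39 and Bcl3 between -0.77 and -0.05. Not all of the 15 could change a difference. For the members, the dim filter, the variance model without array weights and the fit of every probe set repeated the main differences. The replicate block repeated those without KO 4. The sign of the other members turned in part. With single arrays left out Rel ran from -0.071 (without WT 2) to 0.207 (without WT 3), Nfkbia from -0.116 (without WT 2) to 0.066 (without WT 3) and Nfkbie from -0.173 (without KO 4) to 0.059 (without KO 2). Rel was -0.31 without WT 1 and WT 2 and -0.021 with the replicate block. Nfkbia was 0.015 with median centring and 0.013 with array weights. Nfkbie was 0.0097 with quantile normalization, and Nfkbiz was -0.23 without WT 1 and WT 2. The cause was not tested.

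With the replicate number as a block 0 genes passed (2488 at an unadjusted p under 0.05). Deviations of same-numbered KO and WT arrays correlated at -0.04, 0.05 and -0.02 over genes, and none of the 3 WT arrays correlated best with the KO array of its own number, so the numbers were not taken to pair arrays.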

Other observations

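Among the inflammatory target genes the order of the KO arrays was in part that of Relb, Nfkb2, Rela and Nfkbie. KO 2 was the lowest KO array in 29 of 47 of these genes, against 23.7% of all genes, and KO 3 in 11. KO 4 was the highest in 24 of 47, against 21.6% of all genes, and KO 1 in 12. The range over the 4 KO arrays had a median of 0.40 log2 units over these genes and 0.32 over all genes. Cd274 and Il6, chosen after their values were seen, had wider ranges than that and were highest on KO 1. Cd274, which encodes the inhibitory ligand PD-L1, read 11.20, 9.59, 10.36 and 10.99 on KO 1 to 4, against 11.48, 11.72 and 11.22 on WT 1 to 3. Its KO range was thus wider than the distance between the group means of 10.53 in KO and 11.47 in WT. Il6, the gene of interleukin-6, read 8.04, 6.83, 6.88 and 7.54 on KO 1 to 4, against 7.21, 9.27 and 8.49 on WT 1 to 3, where WT 1 lay inside the KO range.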
